A study of Mus musculus with 3 samples.

Results

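The histone cluster genes are the replication-dependent histone genes and their few pseudogenes, named Hist1h, Hist2h, Hist3h or Hist4h after the 4 gene clusters in which they lie. GATA4 peaks were taken as theirs where the deposited annotation credited the peak to a gene with such a name. This gave 74 of 50869 peaks, credited to 63 of the 70 histone cluster genes of a RefSeq gene table. The study mapped GATA4 on chromatin of stomach mucosa from adult mice of 10 to 12 months with the genotype G4fb/fb R26 Bira/Bira, in which the GATA4 protein carries a Flag and biotin tag and the biotin ligase BirA is carried at the R26 locus. All libraries came from this genotype. GATA4 was pulled down with streptavidin beads in 2 libraries, and 1 input library served as the control. The labels do not say whether the 2 pull-downs came from separate animals or from pooled ones; the input carries the same code as the first pull-down, and mice without the tag or the ligase were not analysed here. The authors pooled both pull-downs for peak calling, so the peak list used here gives no value per replicate and no test between samples was made. The labels name the mucosa and no cell type within it, so fewer cells with GATA4 at a site and less GATA4 per cell cannot be told apart. A peak list holds no expression level against which the tissue label could be checked.

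Histone proteins package DNA into nucleosomes. H2A, H2B, H3 and H4 form the core of the nucleosome, and H1, the linker histone, sits where the DNA enters and leaves it. The cluster genes are short genes without introns that are transcribed mainly while a cell copies its DNA, and their messages end in a stem-loop instead of a poly(A) tail. Many H2A and H2B genes stand head to head and share the DNA between their starts as a promoter. The promoters of these genes are known for TATA boxes, CCAAT boxes and, at H2B genes, an octamer bound by POU2F1 (OCT1). GATA4 is a zinc finger transcription factor of endoderm and heart that binds sites with the letters GATA, and it is needed for the glandular epithelium of the stomach.

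The promoters of the genes with the highest peaks are printed first, 2 for each histone type, because a reader can see in them which known elements stand next to a peak. Each line gives the 150 bases before the transcription start site (TSS) from RefSeq, 5′ to 3′ in the direction of the gene, with coordinates of build GRCm38.p6, which differ from the mm9 coordinates of the peaks. Capitals mark the motifs that were searched on both strands: AGATAA for GATA (also with T as its first letter, G as its last, or both), the CCAAT box, TATAAA for the TATA box, and the octamer ATTTGCAT.
Hist1h1c, chr13:23738657-23738806 (+): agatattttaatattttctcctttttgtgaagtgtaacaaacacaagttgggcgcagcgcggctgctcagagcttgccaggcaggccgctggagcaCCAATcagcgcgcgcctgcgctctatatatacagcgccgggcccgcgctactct
Hist1h1e, chr13:23622559-23622708 (-): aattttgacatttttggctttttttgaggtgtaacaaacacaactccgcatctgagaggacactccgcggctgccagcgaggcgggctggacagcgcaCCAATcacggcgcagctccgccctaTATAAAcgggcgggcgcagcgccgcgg
Hist2h2aa1, chr3:96245347-96245496 (+): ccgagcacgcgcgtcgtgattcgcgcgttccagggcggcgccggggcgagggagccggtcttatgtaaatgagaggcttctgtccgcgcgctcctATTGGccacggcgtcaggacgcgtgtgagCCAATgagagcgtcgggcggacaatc
Hist1h2ae, chr13:23571221-23571370 (-): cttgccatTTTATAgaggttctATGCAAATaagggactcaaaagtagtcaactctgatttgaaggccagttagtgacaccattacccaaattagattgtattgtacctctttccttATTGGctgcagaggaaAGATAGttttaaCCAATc
Hist1h2bb, chr13:23746584-23746733 (+): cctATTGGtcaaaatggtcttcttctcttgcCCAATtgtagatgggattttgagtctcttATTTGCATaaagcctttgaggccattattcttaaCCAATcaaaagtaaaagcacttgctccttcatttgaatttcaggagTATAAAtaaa
Hist1h2bl, chr13:21716184-21716333 (-): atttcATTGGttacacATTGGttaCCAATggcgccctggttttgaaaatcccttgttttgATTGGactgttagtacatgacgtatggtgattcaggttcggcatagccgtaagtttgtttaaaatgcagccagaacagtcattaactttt
Hist1h3d, chr13:23575613-23575762 (+): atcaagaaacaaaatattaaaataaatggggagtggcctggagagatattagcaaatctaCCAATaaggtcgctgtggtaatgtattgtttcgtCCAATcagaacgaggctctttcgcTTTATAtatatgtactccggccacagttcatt
Hist2h3b, chr3:96268504-96268653 (+): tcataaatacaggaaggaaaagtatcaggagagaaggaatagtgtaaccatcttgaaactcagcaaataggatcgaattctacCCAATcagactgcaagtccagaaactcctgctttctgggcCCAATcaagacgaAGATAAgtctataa
Hist1h4f, chr13:23551669-23551818 (-): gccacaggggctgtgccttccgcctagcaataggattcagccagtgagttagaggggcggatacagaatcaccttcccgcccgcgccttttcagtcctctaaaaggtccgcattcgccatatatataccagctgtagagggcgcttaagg
Hist4h4, chr6:136804432-136804581 (-): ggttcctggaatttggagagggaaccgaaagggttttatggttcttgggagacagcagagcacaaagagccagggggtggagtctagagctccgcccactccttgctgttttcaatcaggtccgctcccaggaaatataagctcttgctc

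The same stretch is shown for Hist1h1t, the testis-specific H1 gene, and Hist1h2aa, a testis-specific H2A gene. No peak was credited to either. Read in the direction of each gene, their 300-base windows shared no run of over 13 bases with another histone promoter. Hist1h2aa, however, faces Hist1h2ba, which had a peak, and their promoter windows overlap on opposite strands. The CCAAT boxes and the octamer of Hist1h2aa recur in mirrored order before Hist1h2ba.
Hist1h1t, chr13:23695661-23695810 (+): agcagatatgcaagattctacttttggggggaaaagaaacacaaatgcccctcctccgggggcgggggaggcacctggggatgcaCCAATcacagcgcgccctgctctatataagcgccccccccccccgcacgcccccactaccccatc
Hist1h2aa, chr13:23934287-23934436 (+): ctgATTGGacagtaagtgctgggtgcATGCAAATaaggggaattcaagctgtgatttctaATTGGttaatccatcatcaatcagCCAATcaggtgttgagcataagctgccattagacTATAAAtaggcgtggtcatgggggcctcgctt

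GATA motifs were about as common in histone promoters as in all promoters. In the 250 bases before the start, 17 of 62 histone cluster genes held a GATA motif, or 27.4%, against 26.5% of the 32851 promoters in the RefSeq table. Only these bases were searched, while 48 of 51 known summits within 1 kb lay past the start. The shares therefore do not describe the sequence under the peaks, which was not searched. The CCAAT box was found in 82.3% of the histone promoters and in 33.8% of all promoters, the TATA letters in 46.8% and 12.4%, and the octamer in 21.0% and 1.6%. By type, GATA motifs were in 6 of 10 H3, 6 of 16 H2B, 3 of 18 H2A, 2 of 12 H4 and 0 of 6 H1 promoters. Windows of facing H2A and H2B genes overlap, so a motif of any kind in the shared stretch counts for both. Each of the 3 H2A promoters held a GATA motif that was also counted at the facing H2B gene. Among the sequences above, Hist2h3b held AGATAA beginning 14 bases before the start and Hist1h2ae held AGATAG beginning 18 bases before it, while Hist1h1c, which had the highest fold of all histone peaks, held none in its 250 bases. CCAAT was in all 6 H1, all 18 H2A and all 16 H2B promoters and in 3 of 12 H4 promoters, and the octamer was found at 7 H2A and 6 H2B genes, whose windows overlap where they face each other. None of the 6 histone promoters without a credited peak held a GATA motif, against 17 of 56 with one. Of the 6, Hist1h2ao, Hist1h4m, Hist1h2br and Hist2h2aa2 share long runs with the promoter of a gene with a peak. The window of Hist1h2aa overlaps that of the facing Hist1h2ba, which had a peak. All of these are therefore no separate cases, which leaves Hist1h1t, and the contrast was not tested. A match to these letters is no binding site by itself, and their absence says nothing of GATA4. The table has no promoter for Hist2h2be, Hist2h4, Hist3h2bb-ps, Hist1h2aj, Hist1h3f, Hist1h2bc, Hist1h3a and Hist1h2al.

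Nearly all histone cluster genes had a GATA4 peak near their start. A peak centred within 1 kb of the TSS was credited to 63 of 70 genes (90.0%, exact Clopper-Pearson 95% interval 80.5 to 95.9, which covers counting error only). Of 21031 protein-coding genes, 57.4% had one. The count was 63 also within 10 kb or at any distance, against 64.4% and 73.7% of protein-coding genes, and 45 within 250 bases, against 44.2%. More than 1 peak within 1 kb was credited to 6 of the 70 genes, against 12.4% of protein-coding genes. For Hist1h2bq, Hist1h2ap, Hist1h4n and Hist2h3c1 these peaks lay at different sites, with centres 6.95 to 24.1 kb apart. Only Hist1h4a and Hist2h4 had them near 1 start, so the count and the share are not the same measure. Of the 74 peaks, 69 lay that near, or 93.2%, against 31.7% of all peaks. Counted by peak, their fold was somewhat above that of all peaks near a TSS, while the share among the most significant peaks was near the background. The fold enrichment is a ratio of tags piled up at the summit to the input level that the authors' caller used there. It had a median of 5.71 (quartiles 4.72 and 6.71) in the 69 peaks. The median was 5.23 in all 16142 peaks within 1 kb of a TSS and 4.37 in the whole list. Over the strongest such peak of each gene the medians were close, at 5.78 in histone cluster genes and 5.68 in protein-coding genes. At least 5-fold was reached by 54 of the 74 peaks, or 73.0%, against 30.3% of all peaks, and by 50 of the 69, or 72.5%, against 55.3% of all peaks within 1 kb of a TSS. Counted by gene, 47 of 70 had such a peak within 1 kb, against 7929 of 21031 protein-coding genes (37.7%). This contrast includes the difference in having any peak. Among genes with a peak within 1 kb, the counts were 47 of 63 and 7929 of 12077. Of the 69 peaks, 17 were among the top 10% of the list by −log10 q, the caller's significance value, or 24.6%, near the 23.2% of all peaks within 1 kb of a TSS. A −log10 q of at least 10 was reached by 16 histone peaks at 16 genes, where 9.53% of all peaks, 22.1% of those within 1 kb of a TSS and 15.9% of protein-coding genes had one. A single histone peak reached 10-fold, where 1.04% of all peaks and 2.15% of those within 1 kb of a TSS did.

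**Figure D1:**
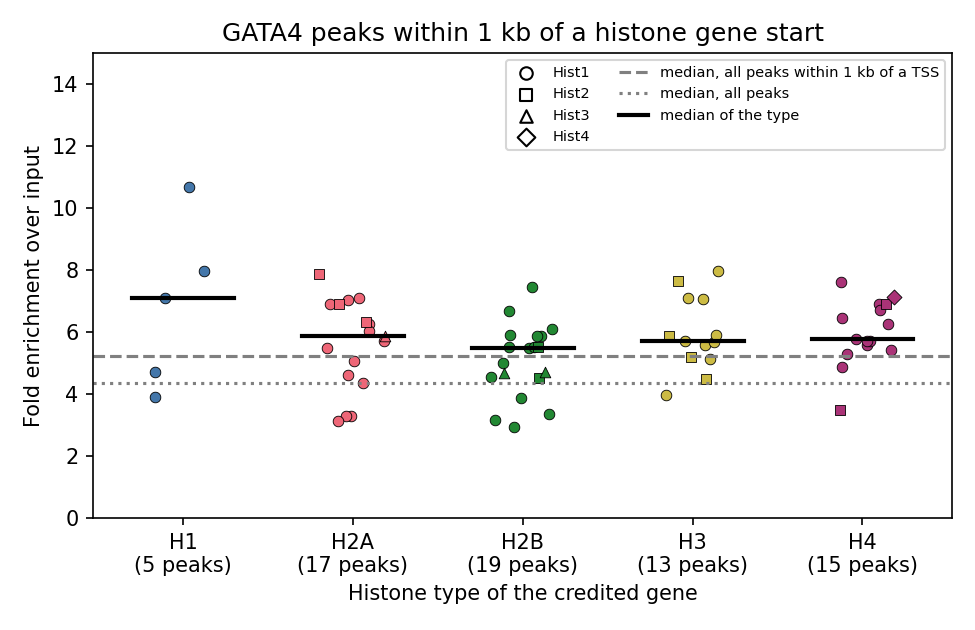
Fold enrichment over input (y axis, linear) of each of the 69 peaks within 1 kb of a histone gene start, by histone type (x axis). Symbols stand for the 4 clusters, black bars for the median of a type, and grey lines for the medians of all peaks within 1 kb of a TSS (5.23, dashed) and of all peaks (4.37, dotted). The types overlap, and Hist1h1c at 10.7-fold stands highest.

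The linker histone genes held the highest peak and the widest range. Of the 6 H1 genes 5 had a peak. Hist1h1c, a somatic H1 gene that is widely expressed, had a 10.7-fold peak with a pileup, the scaled number of tags over the summit, of 30.9 and a −log10 q of 20.8 (chromosome 13, 23830528 to 23831802), which placed it 342nd by fold in the whole list. Hist1h1e reached 7.97-fold (23713707 to 23714487) and Hist1h1d 7.11-fold (23646800 to 23647500), both also somatic H1 genes. Hist1h1a, at 4.72-fold, and Hist1h1b, at 3.92-fold, lay below the median of TSS peaks. The first 3 genes were higher in pileup too, at 20.2 to 30.9 against 13.1 and 10.7. The H1 peaks were also long, with a median of 701 bases against 377 in all 69 histone peaks, and that of Hist1h1c measured 1275 bases. The exception without a peak was Hist1h1t.

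A peak within 1 kb of the start was credited to 16 of 20 H2A genes, with a median fold of 5.88 over their 17 peaks. Hist2h2aa1 led at 7.88-fold (chromosome 3, 96049076 to 96050042). Next came Hist1h2ae at 7.11-fold, Hist1h2af at 7.04-fold, and Hist1h2an and Hist2h2ac, both at 6.91-fold. All of these encode canonical H2A proteins that differ in few residues. The lowest were Hist1h2ab at 3.14-fold and Hist1h2ak and Hist1h2ah, both at 3.29-fold. The local input behind these 3 low peaks was high: the sum of input level and 1, recovered from pileup and fold, was 6.0, 5.0 and 5.0, against a median of 3.0 in the 69 peaks, and its part in their low fold was not tested. Their pileups were 17.8, 15.4 and 15.4, beside a median of 17.8. The pseudogene Hist1h2al, which lies apart from the cluster on chromosome 13 (51298160 to 51298462), had the highest pileup of all 74 peaks at 33.9 and the highest input plus 1 at 8.0, with a fold of 4.36.

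A peak within 1 kb was credited to 18 of 19 H2B genes. The median fold of their 19 peaks within 1 kb was 5.48, and 1 of the 19 was in the top 10% of the list. That was the peak of Hist1h2bb at 7.46-fold (chromosome 13, 23838057 to 23838373), which lay 0.388 kb before the gene, between it and Hist1h3c, whose promoter the annotation names there. Hist1h2bl followed at 6.67-fold, Hist1h2be at 6.11-fold, Hist1h2bm at 5.91-fold and Hist1h2bq at 5.89-fold. The lowest were Hist1h2bh at 2.93-fold and Hist1h2bg at 3.17-fold, and here too the sum of input level and 1 was high, at 5.0 for both. Hist1h2ba, the testis-specific H2B gene, had a peak of 5.51-fold 287 bases inside its start (chromosome 13, 24025601 to 24025875). Its neighbour Hist1h2aa, which faces it and is also specific to testis, had none.

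All 12 H3 genes had a peak. The median fold of their 13 peaks was 5.71, and 5 of the 13 were in the top 10% of the list. Hist1h3d reached 7.97-fold (chromosome 13, 23667626 to 23668010), Hist2h3b 7.66-fold (chromosome 3, 96072527 to 96073071), Hist1h3f 7.11-fold, Hist1h3h 7.06-fold and Hist1h3b 5.91-fold. Hist1h3c, at 3.96-fold, and Hist2h3c2, at 4.48-fold, were lowest. Hist1h3f stood apart by position, with its peak centred 589 bases past the start.

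H4 genes, which encode the same core protein from many copies, had peaks credited to 12 of 13. Their 15 peaks had a median of 5.78-fold, and the strongest peak of every H4 gene with a peak was above 5-fold. Hist1h4f led at 7.61-fold (chromosome 13, 23643178 to 23643635), then Hist4h4 at 7.15-fold, Hist1h4d and Hist2h4 at 6.91-fold and Hist1h4c at 6.71-fold. The lowest among the strongest peaks were those of Hist1h4k at 5.30-fold and Hist1h4a at 5.41-fold. Hist1h4a and Hist2h4 each had a second peak before the gene, 0.245 kb upstream at 4.87-fold and 0.468 kb upstream at 3.50-fold. The ranges of all 5 types overlapped, from 3.92 to 10.7 in H1, 3.14 to 7.88 in H2A, 2.93 to 7.46 in H2B, 3.96 to 7.97 in H3 and 3.50 to 7.61 in H4. With 1 value per peak and no replicates, an order of the types was not tested.

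Most peaks near a histone gene start were centred downstream of it, although many intervals also covered the start. The centre was downstream of the TSS in 63 of the 69 peaks, or 91.3%, where 72.4% of all peaks within 1 kb of a TSS were. The interval covered the TSS in 33 of the 69, or 47.8%, against 63.0% of all such peaks. In another 31 peaks, or 44.9%, the whole interval began past the TSS, against 25.7% of all such peaks. These shares differed by type: 13 of 19 H2B, 7 of 13 H3 and 7 of 17 H2A peaks lay wholly past the start, but 3 of 15 H4 and 1 of 5 H1 peaks. For the 51 peaks at genes with 1 known site and strand, the summit lay a median of 157 bases past the start (quartiles 94 and 223.5), and 48 of the 51 summits were downstream. Over all 12552 peaks within 1 kb of a TSS with a known strand, the median was 95 bases and 67.9% were downstream. Histone genes are short and have no introns, and the annotation placed 26 of the 74 peaks, or 35.1%, in exons and 39, or 52.7%, in the promoter class, against 12.7% and 16.6% of all peaks. The only exon of a gene held 26 of the 69 peaks when the non-coding exon of Hist1h2al is counted and that of Hist1h2be, which is 1 of 2, is not. Such an exon held 2.28% of all peaks within 1 kb of a TSS and 1.0% of all peaks.

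**Figure D2:**
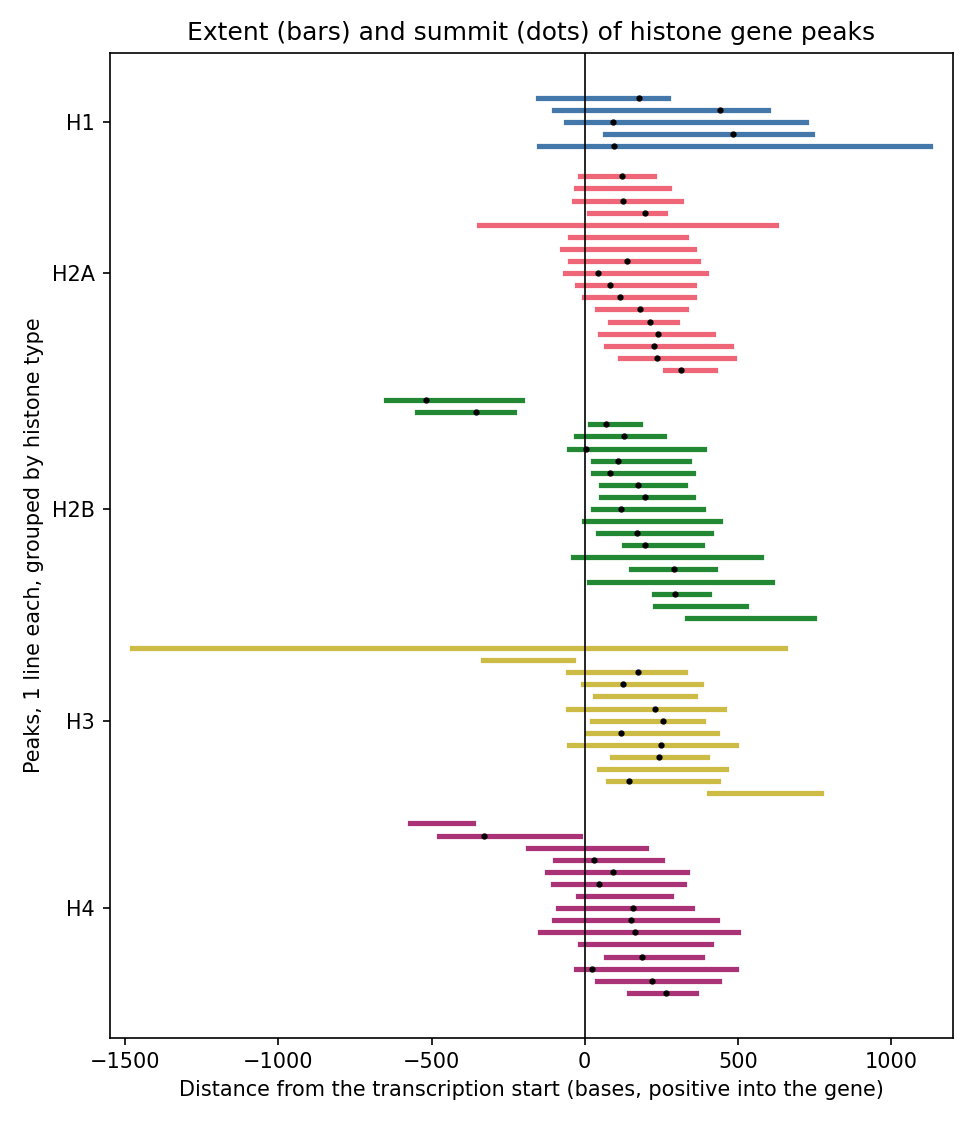
Position of the 69 peaks relative to the credited transcription start (x axis, bases, 0 at the start and positive into the gene), 1 line per peak, grouped by histone type (y axis). Coloured bars show the called interval and dots the summit, which is drawn for the 51 peaks at genes with 1 known site and strand. Of the 69 bars, 33 cross 0 and 31 begin past it, and most dots lie to the right of 0.

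Where an H2A and an H2B gene faced each other, most pairs had a peak at each gene. The RefSeq order holds 10 neighbouring H2A and H2B genes with facing starts no more than 1000 bases apart and both strands given, and 7 of these pairs had exactly 1 peak within 1 kb of each gene. Their starts were 178 to 281 bases apart in mm9, with a median of 211. The stretch without a peak between both intervals was 207 to 519 bases long, with a median of 288, and in 7 of 7 pairs it held the middle between the starts. These 7 pairs were picked for having separate peaks, and the middle was not examined in the other 3. Both summits lay inside the genes in all 7 pairs. Hist1h2ae and Hist1h2bg show this layout. Their starts are 180 bases apart, the peak of Hist1h2ae (23662601 to 23662975) ended 519 bases before that of Hist1h2bg (23663495 to 23663674) began, and the summits lay 236 and 296 bases inside the genes. In the pair of Hist1h2bl (6.67-fold) and Hist1h2ai (4.62-fold) the peak of Hist1h2ai covered its start, as did those of Hist1h2an, Hist1h2bp and Hist1h2bj at theirs. The higher fold was at the H2A gene in 3 of 7 pairs. Tags were extended to 161 bases by the caller, which limits how finely a position can be read.

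**Figure D3:**
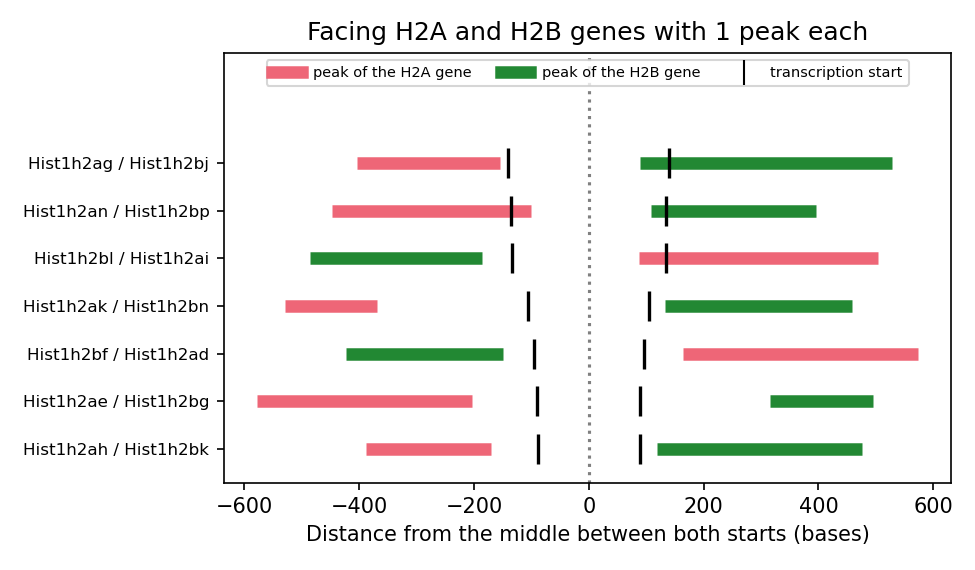
The 7 facing pairs of H2A and H2B genes with 1 peak each (y axis), drawn to scale around the middle between both starts (x axis, bases). Bars are the called peaks, red for the H2A and green for the H2B gene, and black ticks are the starts. No bar crosses the middle, and the distance between the bars of a pair is 207 to 519 bases.

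The Hist1 cluster on chromosome 13 held most of the peaks and fell into 2 blocks. Of its 56 genes, 50 were credited with a peak within 1 kb of the start. The first block, from 21807660 to 22143052 (0.335 Mb), held 26 histone peaks of 20 genes and 4 other peaks. The second, from 23609511 to 24025875 (0.416 Mb), held 31 histone peaks of 29 genes and 2 other peaks. Between the blocks lay 1.47 Mb with 18 peaks, of which 11 were in repeats. Within 1 kb of a start, the median fold was 5.59 over 23 peaks in the first block and 5.81 over 30 peaks in the second. The top 10% of the list held 2 of the 23 and 11 of the 30, where it held 23.2% of all peaks within 1 kb of a TSS, and a difference between the blocks was not tested. The H1 genes Hist1h1c, Hist1h1d and Hist1h1e are all in the second block.

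**Figure D4:**
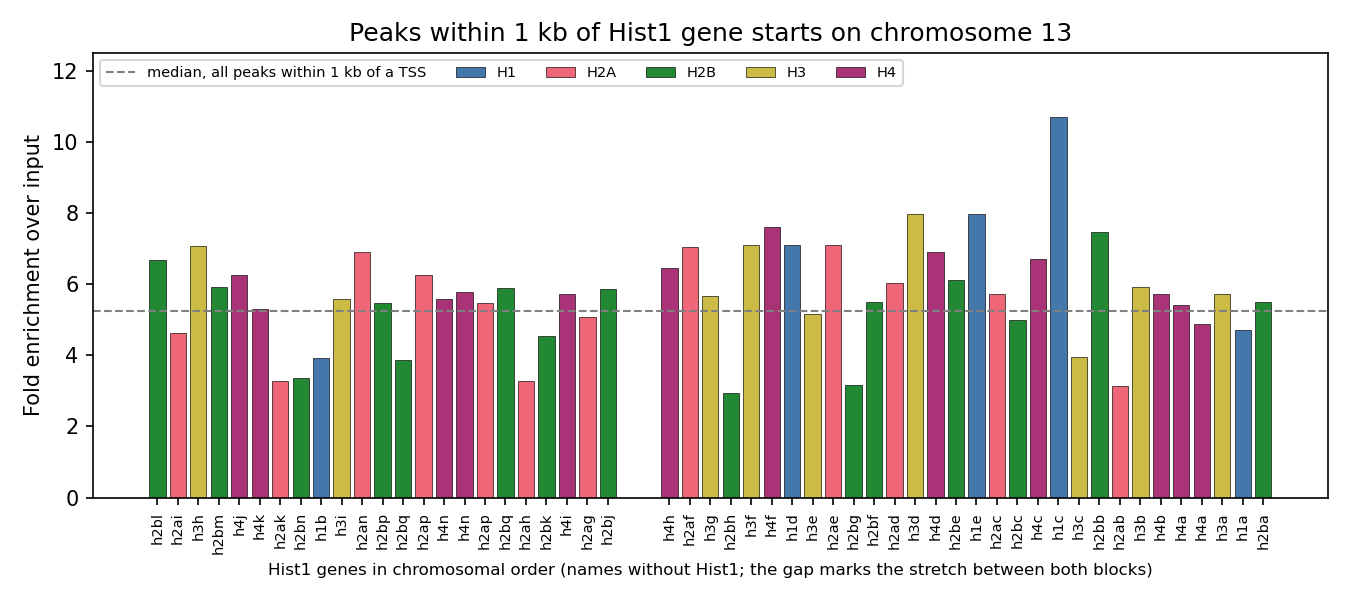
Fold enrichment over input (y axis, linear from 0) of the peaks within 1 kb of Hist1 gene starts in chromosomal order (x axis), coloured by histone type, with a gap between both blocks; Hist1h2al, far away on the chromosome, is left out. The dashed line is the median of all peaks within 1 kb of a TSS, 5.23. The highest bars, Hist1h1c, Hist1h3d and Hist1h1e, are in the second block.

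The smaller clusters hold few genes, and their shares were not compared by a test. Hist2, on chromosome 3 (96023774 to 96082187), had peaks credited to 9 of 10 genes, and the median of the 11 peaks within 1 kb was 5.88-fold. Besides Hist2h2aa1, Hist2h3b, Hist2h2ac, Hist2h4 and Hist2h3c2, given above, Hist2h2ab reached 6.33-fold, Hist2h2bb 5.51-fold and Hist2h2be 4.52-fold. Hist2h3c1 had the longest histone peak, 2131 bases at 5.21-fold (96042411 to 96044541), and a second of 5.88-fold, their centres 6.95 kb apart. Hist3, on chromosome 11, is made of 3 genes. Hist3h2a had a 5.88-fold peak, the pseudogene Hist3h2bb-ps one of 4.72-fold and Hist3h2ba one of 4.69-fold, so that 1 of the 3 passed 5-fold. Hist4 consists of Hist4h4 alone, on chromosome 6 (136752451 to 136753099), with a pileup of 31.5 scaled tags, an input level plus 1 of 4.54 and a −log10 q of 15.1.

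Genes that exist in near-identical copies limit what a credited name means. Copies were compared over promoter windows of 300 bases only, each read in the direction of its gene. The DNA that facing genes share on opposite strands was therefore not counted as a shared run. The gene bodies, in which most known summits lay, were not compared, so likeness of other histone genes there was not measured. Of the 7 genes without a credited peak, 4 share long runs of promoter sequence with a gene that had one: 300 of 300 bases between Hist1h2br and Hist1h2bq, 285 between Hist1h4m and Hist1h4n, 219 between Hist2h2aa2 and Hist2h2aa1, and 200 between Hist1h2ao and Hist1h2ap. The copies with a peak were placed by the annotation at more than 1 site. The peaks of Hist1h2bq (3.88-fold and 5.89-fold) lay 24.1 kb apart, those of Hist1h2ap (6.27-fold and 5.48-fold) 22.7 kb and those of Hist1h4n (5.59-fold and 5.78-fold) 20.2 kb. In RefSeq order the genes run Hist1h2bq, Hist1h2ao, Hist1h4m, Hist1h4n, Hist1h2ap and Hist1h2br. Along the chromosome their peaks were credited, in the same order of types, to Hist1h2bq, Hist1h2ap, Hist1h4n, Hist1h4n, Hist1h2ap and Hist1h2bq. Peaks thus lay in the places of Hist1h2ao, Hist1h4m and Hist1h2br under the name of a copy, and counts by credited name leave these genes out. Reads from identical stretches cannot be assigned to 1 copy, so which copies carried GATA4 is uncertain, as is the absence at Hist2h2aa2. The other genes without a peak were Hist1h1t, Hist1h2aa and the pseudogene Hist1h2aj. Hist1h2aj neighbours Hist1h2bm, whose only peak was centred 0.426 kb before its start, on the side of Hist1h2aj. Of the 69 peaks near a start, 13 had a sum of input level and 1 of at least 4.5, a limit chosen after the values were seen, or 18.8%, against 8.71% of all peaks within 1 kb of a TSS. The 13 had a median of 4.36-fold and a pileup of 21.4, and the other 56 had 5.88-fold and 17.5.

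Few peaks lay away from a start. The 5 histone peaks over 1 kb away were all intergenic and reached 4.92-fold to 6.07-fold. One was 13.3 kb upstream of Hist1h4h, in a gene for the initiator methionine tRNA, at 4.92-fold. Another, 11.9 kb downstream of the start of Hist1h2bn, was in an endogenous retrovirus of the MMVL30 family at 5.51-fold, and it was higher than the 3.37-fold peak at the gene itself. Those 7.85 kb from Hist1h2bj (6.07-fold) and 8.43 kb from Hist2h2bb (5.31-fold) were in CpG islands, and 1 of 5.88-fold lay 6.70 kb from Hist1h2ah. Credit by the nearest TSS does not tie these to the histone genes.

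The replacement variant genes, histone genes not named after the clusters, also had peaks near their starts. All 11 of the replacement variant genes listed had one within 1 kb, beside 57.4% of protein-coding genes, with a median strongest fold of 5.48, against 5.68 in all protein-coding genes with such a peak and 5.78 in the histone cluster genes. H1f0, a linker histone of resting cells, and H3f3a, which encodes H3.3, reached 8.30-fold. H2afy, the gene of macroH2A1, reached 8.10-fold, H3f3b, also for H3.3, 6.78-fold, and H1fx 5.68-fold. Cenpa, for the centromeric H3, was lowest at 2.81-fold.

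Genes that act on histone genes, messages and proteins were reached at 19 of 21 (90.5%, exact 95% interval 69.6 to 98.8), beside 57.4% of protein-coding genes, with a median strongest fold of 5.71. Zfp473, part of the machinery that cuts the message at its 3′ end, reached 8.45-fold, Hinfp, a transcription factor of H4 genes, 8.10-fold, and Slbp, which binds the stem-loop, 7.79-fold. Next were the H3 and H4 chaperone gene Asf1b at 7.46-fold and Sympk, the scaffold of the cleavage complex, at 7.06-fold. Casp8ap2 and Lsm11, which work with the U7 particle in cutting the message, had 6.08-fold and 6.47-fold. Npat, the coactivator of histone gene transcription, was the nearest gene of no peak, and the nearest peak of Mcm2, a helicase subunit that also binds histones, was 5.68 kb away. Pou2f1, whose product binds the octamer printed above, had a peak of 5.68-fold.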

How the data were processed

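Per the file headers, both GATA4 pull-downs were pooled and called against the single input with MACS2 2.1.0.20140616 at a q limit of 0.05. Per the submitters' processing notes, Bowtie2, HOMER and build mm9 were used. Per the file headers, 38770530 of 59610626 pull-down tags and 23023152 of 28116789 input tags of 74 bases were kept, at 1 tag per position. The headers give 1 depth for both pull-downs together. How reads that match several places were placed is not stated. The deposited pileup is a coverage signal, scaled so that 1 pull-down tag counts 0.594. The 74 pileups came to whole tags, 16 to 57, within 0.0083 of a tag. The deposited fold enrichment is a ratio with 1 added to both sides, so (pileup + 1) / fold gives the input level used by the caller, plus 1. Over all 50869 peaks this sum was never below 2.98, and its median was 3.0. At many peaks it may thus be a floor set by the caller and not the input at the site. The deposited −log10 p-value and q-value columns, of which only the second was used, had lost their names; the q column was identified by the deposited HOMER score, equal to 10 times that value without its decimals in each of 50869 peaks. Distances to the nearest TSS are the authors' deposited values.

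Members were found by gene name. Gene types, neighbours, promoters and all 70 histone cluster genes came from RefSeq tables of GRCm38.p6, matched by Entrez ID or older symbol; 62 of the 70 had a promoter. Nothing was tested: counts and medians stand beside those of all peaks or of 21031 protein-coding genes with a curated transcript, with exact Clopper-Pearson intervals. Values were named by rule: the 5 highest and 2 lowest genes of each type, all Hist2, Hist3 and Hist4 genes, peaks over 1 kb away, genes with several peaks and genes with none; of the other lists, the 5 highest and those with none, while Hist1h2ba, Hist1h2al, Casp8ap2, Lsm11, Pou2f1 and Cenpa were named after their values were seen. The members and lists were chosen with earlier results of these data known. Alternatives were a −log10 q of at least 10, a fold of at least 5, other distances, crediting facing pairs together, leaving out pseudogenes or repeats, and other measures of height. Python 3.11.15, pandas 2.3.3 and scipy 1.17.1 were used, and the summaries were tested on simulated data.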

Additional observations from a re-analysis of the deposited data

How the results depend on the processing

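No paired analysis was possible because the authors pooled both pull-downs, and for the same reason no replicate could be left out. Of 118 values recomputed under the alternatives, 88 stayed within 1.5 times the reported count or within the 95% interval of the reported median, 30 moved and 0 reversed. A count or a median fold cannot reverse. The interval of H1, with 5 peaks, spans its whole range from 3.92 to 10.7, so its median fold could not move. A −log10 q of at least 10 moved the most. It left 16 peaks and 16 genes, namely 3 H1, 3 H2A, 1 H2B, 5 H3 and 4 H4, of which 12 were in Hist1, 3 in Hist2 and 0 in Hist3, with 6 genes of the histone processing list and 4 replacement variants; the median fold became 7.13 over all peaks, 7.11 in H2A and 7.46 in H2B, as it must when low peaks are removed. A fold of at least 5 left 3 H1, 11 H2B and 1 Hist3 genes and 7 replacement variants, with a median of 5.91. Within 250 bases of the TSS there were 2 H1, 10 H2B and 1 Hist3 genes and 7 replacement variants with a peak, the other peaks being centred farther from the start on either side. The median of the histone peaks over that of all peaks was 1.31 by fold and 1.78 by −log10 q. By type, over the strongest peak of each gene, −log10 q gave 2.65 in H1, 2.1 in H2A, 1.58 in H2B, 1.95 in H3 and 2.43 in H4. Each was above the value by fold, but fold and −log10 q are on different scales, so the ratios cannot be compared in size. With 16 tags behind the lowest peak and 1 input library, small differences in fold are not resolved, and values that tie do so because pileups come in whole tags.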
